A study of Mus musculus with 4 samples.

Results

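The genes examined were 7 genes of intestinal bile acid handling, chosen by name: Slc10a2, Fabp6, Slc51a, Slc51b, Fgf15, Nr1h4 and Nr0b2. All 7 were found among the 56748 genes of the deposited count table, and 6 of them had enough counts for the main test. The table holds the small intestine (SI) of 2 WT (p53+/+) mice and 2 p53-/- mice, collected on day 1 after total-body irradiation (TBI) with 12 Gy from a Cs-137 source. All 4 animals were irradiated, so the comparison is of p53-/- with WT after TBI and not of irradiated with unirradiated SI. The mice were age- and gender-matched animals obtained from the Jackson Laboratory, and in p53-/- mice p53 is missing from every cell and not from the epithelium alone. The libraries carry the numbers 7 and 8 (WT) and 9 and 10 (p53-/-). The labels do not say which segment of the SI was taken.

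Bile acids are made in the liver, act on fats in the gut lumen and are taken back up in the ileum, the last part of the SI. SLC10A2 (also called ASBT) carries them into the enterocyte from the lumen, FABP6 binds them in the cytosol, and the heterodimer of SLC51A and SLC51B (OSTα and OSTβ) exports them to the blood. Inside the cell, bile acids activate the nuclear receptor FXR, encoded by Nr1h4. FXR bound to RXR induces Fabp6, Slc51a, Slc51b, Nr0b2, which encodes the corepressor SHP, and Fgf15, which encodes a hormone that travels to the liver and represses bile acid synthesis.

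The promoter of Fabp6 is shown because it holds the letters of the motif known for FXR. RefSeq promoters (build GRCm38.p6) matched 6 of the 7 genes, all but Fgf15, and the 250 bases before each start were searched on both strands. An IR-1 motif, the FXR element, is AGGTCA, 1 spacer base and the reverse complement of AGGTCA, so it reads the same on each strand. Up to 2 mismatches were allowed outside the spacer, and capitals mark the matches. Of these 6 promoters, IR-1 was found only in that of Fabp6, at 222 and 142 bases before the start, with 2 mismatches each. Of 32851 promoters of this length in the table, 0.959% held an IR-1 match. A match is a description of letters and no evidence of binding.
Fabp6 (chr11:43601563-43601812, minus strand): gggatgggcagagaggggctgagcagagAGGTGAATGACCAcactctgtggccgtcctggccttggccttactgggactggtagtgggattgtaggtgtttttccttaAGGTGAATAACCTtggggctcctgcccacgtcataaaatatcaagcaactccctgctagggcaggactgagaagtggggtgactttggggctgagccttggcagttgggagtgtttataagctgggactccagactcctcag

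Library totals ranged from 15005479 to 22173164 counts. Levels below are in CPM, that is, counts brought to equal depth with the TMM factors of edgeR. Trp53 itself was at 57.7 and 47.1 CPM in WT and at 19.8 and 22.5 CPM in p53-/- libraries, lower in both (log2 fold change -1.31, adjusted p = 0.0602 by the quasi-likelihood test of edgeR), in counts over the whole gene and not the deleted part alone. The libraries differed in other tissues they held. Summed over 6 smooth muscle genes, WT library 8 had 4495 CPM and the others between 481 and 995 CPM. Summed over 6 B cell genes, p53-/- library 10 had 431 CPM against 1.11, 1.82 and 21.8 CPM in libraries 7, 8 and 9. Although the study describes its mice as gender-matched, library 10 had 588 counts of Xist, the RNA of the inactive X chromosome, against at most 4 in the others, and its share of 18S ribosomal RNA (Rn18s-rs5) was 4.59%, against 0.296% to 0.863%. Whether library 10 is a mixed or mislabelled sample was not tested, so the p53-/- means and spreads below rest on that label. The 2 libraries of each genotype were not copies of each other: chi-square divided by its degrees of freedom was 48.0 for WT and 69.5 for p53-/-. This cannot show that they came from different mice, since it only measures a difference beyond counting error. Each was counted as a sample because the paper calls its replicates biological. Without WT library 8 the log2 fold changes of Slc10a2, Fabp6, Slc51a, Slc51b, Fgf15 and Nr1h4 were -0.47, -1.57, -1.38, -0.73, -3.32 and -0.59. Without p53-/- library 10 they were -0.52, -1.09, -1.14, -0.51, -2.98 and -0.43, against -0.63, -0.98, -1.11, -0.49, -2.75 and -0.51 with all 4 libraries.

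**Figure D1:**
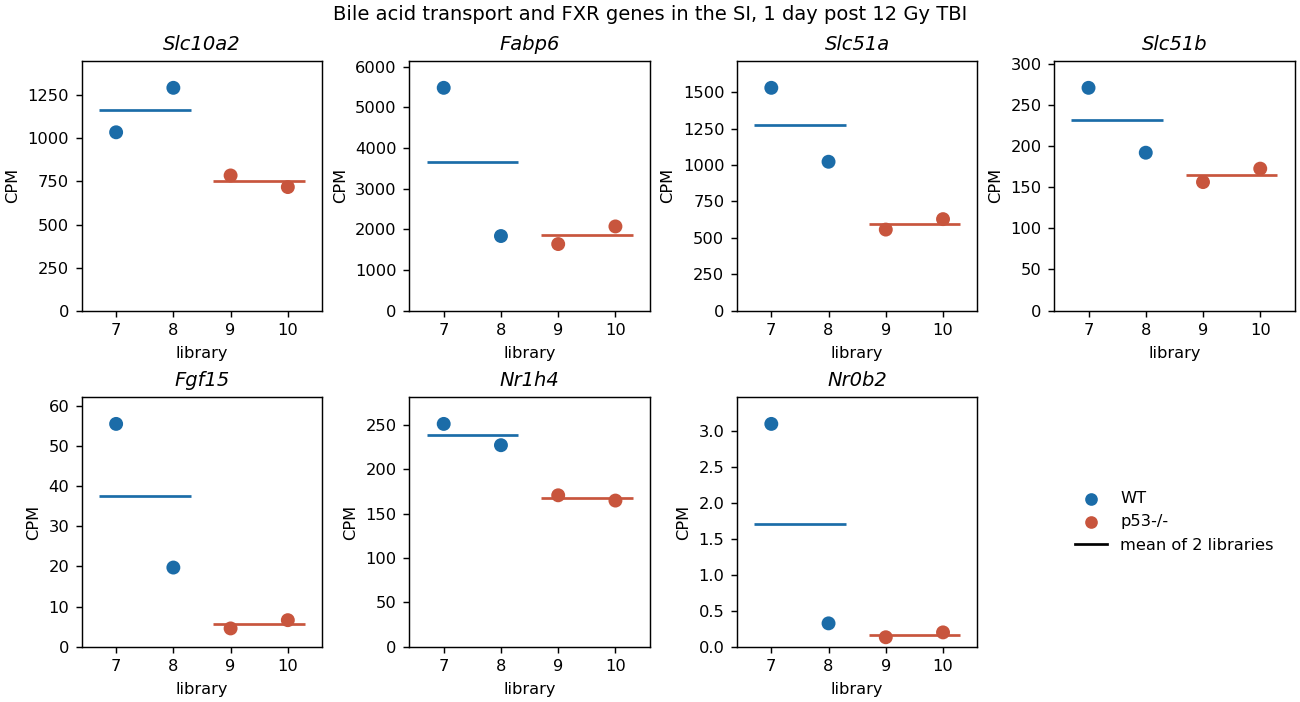
CPM (linear axes from 0) of each of the 7 genes in WT libraries 7 and 8 and p53-/- libraries 9 and 10, with points for libraries and lines for the mean of 2 libraries. Fabp6, Fgf15 and Nr0b2 stand highest in library 7, and both p53-/- points lie below both WT points for every gene but Fabp6.

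Slc10a2 (ENSMUSG00000023073), the carrier that brings bile acids in from the lumen, was at 1035 and 1293 CPM in WT libraries 7 and 8 and at 785 and 717 CPM in p53-/- libraries 9 and 10. Both p53-/- values lay below both WT values, with means of 1164 ± 183 and 751 ± 47.7 CPM (SD, n = 2). The log2 fold change was -0.63 (standard error 0.250, 95% interval -1.26 to -0.0063), a level 1.55-fold lower, which did not pass the threshold (adjusted p = 0.274 by the quasi-likelihood test of edgeR, Benjamini-Hochberg adjusted). In a bulk sample, fewer ileal enterocytes and less Slc10a2 RNA in each of them cannot be told apart, and this holds for all 7 genes.

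Fabp6 (ENSMUSG00000020405), the cytosolic bile acid binding protein, was at 5483 CPM in WT library 7, 1836 CPM in WT library 8, 1639 CPM in p53-/- library 9 and 2072 CPM in p53-/- library 10. Library 7 stood apart from the other 3, among which WT library 8 lay between the p53-/- libraries, so the genotypes overlapped. The log2 fold change was -0.98 with an interval from -2.39 to 0.43 (adjusted p = 0.439 by the quasi-likelihood test of edgeR), and without WT library 7 it was 0.022. The difference between the 2 WT mice, 1.58 on the log2 scale, was thus larger than that between the genotypes. It was also large among genes: 1.24% of the 16094 genes tested were as far or farther above library 8 in library 7, and the median absolute difference between these libraries was 0.36.

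Slc51a (ENSMUSG00000035699), the OSTα subunit of the basolateral exporter, was at 1530 and 1022 CPM in WT libraries 7 and 8 and at 557 and 628 CPM in p53-/- libraries 9 and 10. The means were 1276 ± 359 and 592 ± 50.7 CPM (SD, n = 2), with no overlap, and the level was 2.15-fold lower in p53-/- SI. The log2 fold change was -1.11 (standard error 0.293, 95% interval -1.84 to -0.37), and the adjusted p was 0.158 by the quasi-likelihood test of edgeR, above the threshold. DESeq2 gave an adjusted p of 0.000781. With 1 library left out, the adjusted p of edgeR was 0.0485 without WT library 8, but 0.235, 0.518 and 0.667 without libraries 7, 9 and 10. In the GENCODE M21 annotation Slc51a overlaps Pcyt1a on the opposite strand, which had up to 2869 counts, and the strand setting of the counting is not given in the sources used here.

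Slc51b (ENSMUSG00000053862), the OSTβ subunit that SLC51A needs to reach the membrane, was at 271 and 192 CPM in WT libraries 7 and 8 and at 156 and 173 CPM in p53-/- libraries 9 and 10. The p53-/- values again lay below the WT values, but WT library 8 was only slightly above library 10. The log2 fold change was -0.49 (95% interval -1.07 to 0.08, adjusted p = 0.340 by the quasi-likelihood test of edgeR), and without WT library 7 it was -0.22. Slc51b overlaps Rasl12 on the opposite strand, which had up to 159 counts.

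Fgf15 (ENSMUSG00000031073), the ileal hormone gene, had the largest difference between genotypes of the 6 genes tested. It had 897 and 304 counts in WT libraries 7 and 8 and 104 and 133 counts in p53-/- libraries 9 and 10, which were 55.5, 19.7, 4.56 and 6.62 CPM. Both p53-/- libraries lay below the lower WT library, and the 2 WT libraries differed from each other by 1.49 on the log2 scale, a gap that 1.51% of tested genes reached or passed in the same direction. The log2 fold change was -2.75 (standard error 0.546, 95% interval -4.12 to -1.38), a level 6.74-fold lower in p53-/- SI. The unadjusted p was 0.00310 and the adjusted p 0.106 by the quasi-likelihood test of edgeR, so Fgf15 did not pass the threshold. It passed with DESeq2 (adjusted p = 4.44e-06), and the log2 fold change was -1.81 without WT library 7 and -3.32 without WT library 8. With libraries 7, 8, 9 and 10 left out in turn, the adjusted p of edgeR was 0.0416, 0.00604, 0.267 and 0.582. Antisense genes overlapping Fgf15 had at most 18 counts.

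**Figure D2:**
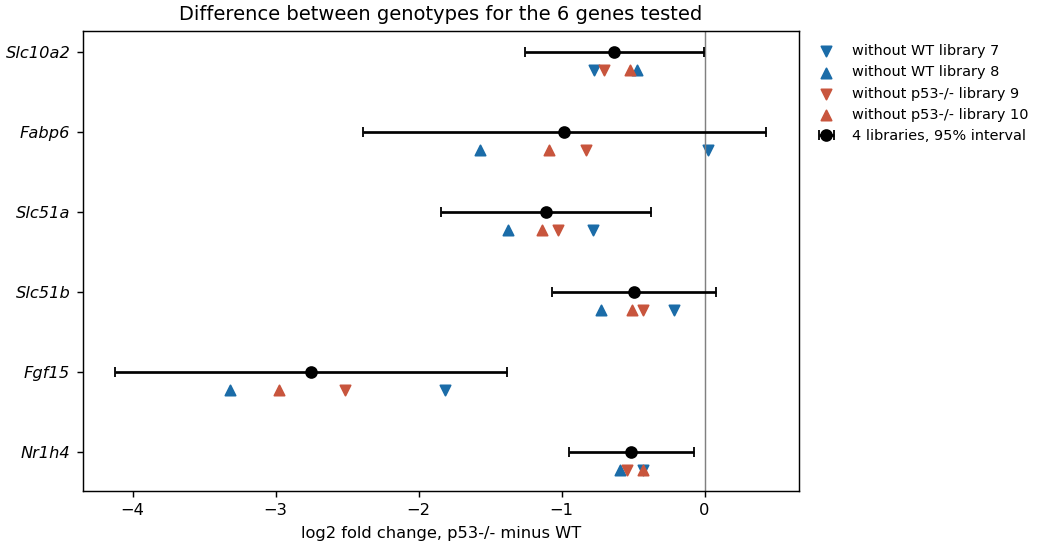
Log2 fold change (p53-/- minus WT) of the 6 genes tested, with 95% intervals from 4 libraries as bars and triangles for the value without each library. All 6 estimates are negative, from -2.75 for Fgf15 to -0.49 for Slc51b, and the value of Fabp6 without WT library 7 is 0.022, all with TMM scaling, while Slc10a2, Slc51b and Nr1h4 are positive when libraries are scaled to distal enterocyte genes.

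Nr1h4 (ENSMUSG00000047638), which encodes FXR, was at 251 and 227 CPM in WT libraries 7 and 8 and at 171 and 165 CPM in p53-/- libraries 9 and 10. Its replicates were the closest of the 6 tested genes in WT, with means of 239 ± 17.0 and 168 ± 4.2 CPM (SD, n = 2). The log2 fold change was -0.51 (standard error 0.175, 95% interval -0.95 to -0.07), a level 1.43-fold lower, with an adjusted p of 0.226 by the quasi-likelihood test of edgeR. Unlike Fabp6 and Fgf15, Nr1h4 differed little between the WT libraries, by 0.14 on the log2 scale.

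Nr0b2 (ENSMUSG00000037583), the gene of the corepressor SHP, had 50 counts in WT library 7 and 5 in WT library 8. It had 3 in p53-/- library 9 and 4 in p53-/- library 10, too few for the main test of edgeR. Library 7 again stood apart, at 3.09 CPM against 0.324, 0.131 and 0.199 CPM. The ratio of WT library 7 to WT library 8 was 9.54 (95% counting interval 3.83 to 30.6). WT library 8 alone was 1.99-fold the level of the p53-/- libraries, with a counting interval of 0.498 to 7.28, so a difference from that library was not detectable at this depth. These exact intervals, from 1 rate against another, cover counting error only and not the spread between mice.

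Of the 6 genes tested, 0 passed an adjusted p of 0.05 in the quasi-likelihood test of edgeR, against 0.491% of all genes tested in either direction. At an unadjusted p under 0.05 the background was 18.0% in either direction and 7.92% for lower genes, and Slc10a2, Slc51a, Fgf15 and Nr1h4 were lower at that level. With DESeq2, Slc10a2 (adjusted p = 0.0447), Slc51a and Fgf15 passed the threshold, against a background of 3.50% for lower genes. With the likelihood ratio test of edgeR Slc51a and Fgf15 passed, against a background of 2.87% for lower genes. With no filter on low counts Slc51a, Fgf15 and Nr0b2, the last with most of its counts in library 7, passed against a background of 2.73% for lower genes. With TMM scaling, both p53-/- libraries lay below both WT libraries for 5 of the 6 genes tested, all but Fabp6. They did so for Nr0b2 too, which was not in the main test. Among all genes tested 24.4% lay that way and 50.7% did not overlap in either direction. The shares given here are also the background for the counts of list genes below. The median log2 fold change of the 6 genes was -0.81, and that of all genes tested was -0.01.

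**Figure D3:**
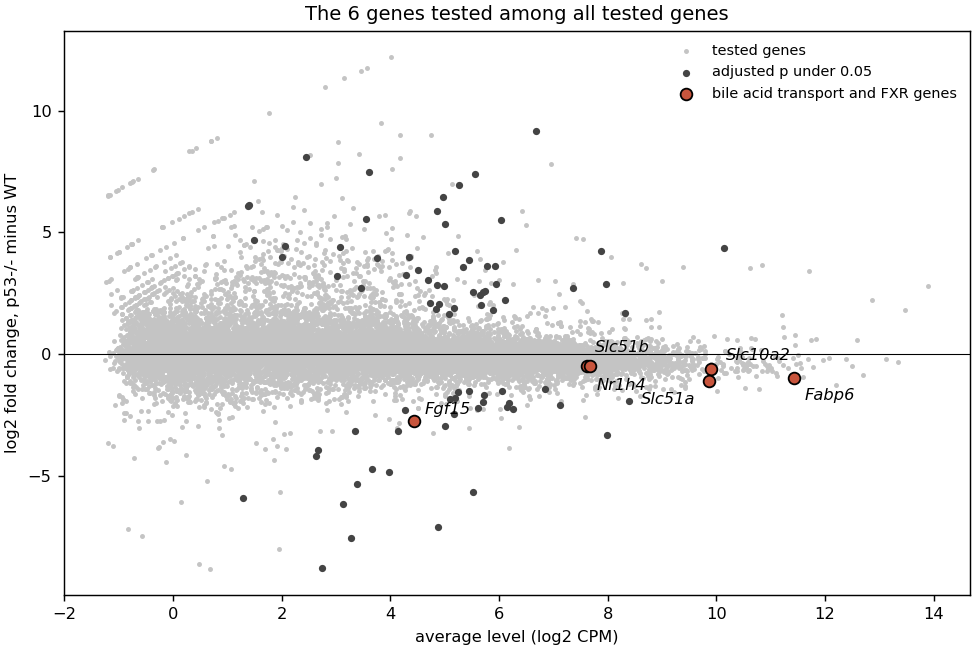
Log2 fold change (p53-/- minus WT) against average log2 CPM for the 16094 genes tested, with genes past an adjusted p of 0.05 in dark and the 6 bile acid genes in red. Fabp6, Slc10a2 and Slc51a lie at the abundant end, and Fgf15, at -2.75, is the lowest of the 6 and was not called.

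Ratios of counts within a library do not depend on the scaling of the libraries. The ratio of Slc51a to Slc51b, the 2 subunits of the exporter, was 5.65 and 5.33 in WT libraries and 3.56 and 3.64 in p53-/- libraries, close within a genotype and without overlap between them. The ratio of Fgf15 to Nr1h4 was 0.221 and 0.0869 in WT and 0.0267 and 0.0402 in p53-/- SI. Slc51a to Nr1h4 was also lower in p53-/- libraries, at 3.26 and 3.82 against 6.09 and 4.50. The ratio of Slc10a2 to Nr1h4 overlapped, at 4.12 and 5.70 in WT and 4.6 and 4.36 in p53-/- SI, and so did Fabp6 to Nr1h4 and Slc51b to Nr1h4. Of the 15 pairs of tested genes, which share genes with each other, 7 ratios did not overlap between genotypes. No background of other gene pairs was computed, and as levels 50.7% of all genes tested did not overlap either, so nothing is read from this count. With 2 libraries per genotype these ratios were described and not tested.

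**Figure D4:**
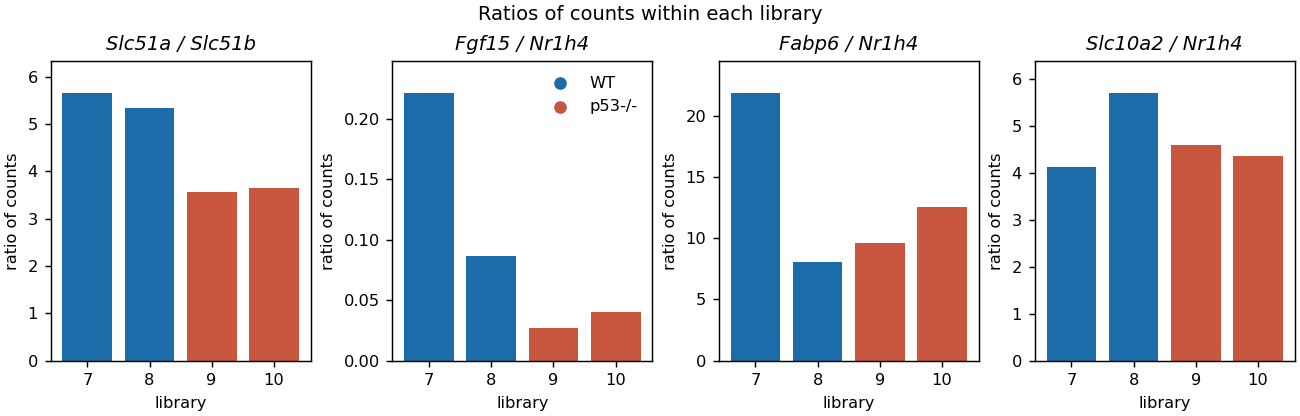
Ratios of read counts of 2 genes within each library (bars from 0), WT libraries 7 and 8 in blue and p53-/- libraries 9 and 10 in red. Slc51a / Slc51b and Fgf15 / Nr1h4 are lower in both p53-/- libraries, while Fabp6 / Nr1h4 and Slc10a2 / Nr1h4 overlap.

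Per kilobase of exon (CPM divided by the exon length in GENCODE M21), Fabp6 had the highest level of the 7 genes in each of the 4 libraries, from 3421 in library 9 to 11448 in library 7. Slc10a2, Slc51a and Slc51b followed, between 173 and 478 CPM per kilobase. Their order changed with the library, with Slc51a second in both WT libraries and Slc51b second in both p53-/- libraries. Nr1h4 was the fifth in each library, at 71.5 to 109, then Fgf15 at 1.49 to 18.2 and Nr0b2 at 0.116 to 2.73 CPM per kilobase. Fabp6 ranked between 8 and 49 among all genes by counts, and the 7 genes together took 0.800% of all counts in WT library 7 and between 0.341% and 0.472% in the others.

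Other carriers of bile acids and their conjugates did not share 1 direction. Of 12 listed, 7 were tested and 0 passed the threshold in the quasi-likelihood test of edgeR, with 2 higher and 2 lower at an unadjusted p under 0.05 and 3 called by DESeq2. Abcc2, an apical export pump of conjugates, was at 143 and 99.5 CPM in WT and 41.3 and 50 CPM in p53-/- libraries (log2 fold change -1.41). Abcb1a, a drug efflux pump also of the apical side, was at 1131 and 878 CPM in WT and 457 and 297 CPM in p53-/- libraries (log2 fold change -1.41). Abcc3, which exports conjugates across the basolateral side as SLC51A and SLC51B do for bile acids, had the opposite sign, at 61.1 and 62.1 CPM in WT and 135 and 105 CPM in p53-/- libraries (log2 fold change 0.96). Their adjusted p-values were 0.0836, 0.119 and 0.103 by the quasi-likelihood test of edgeR, and all 3 passed with DESeq2.

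Of the receptors that share ligands or partners with FXR, 10 of 12 were tested and 0 passed the threshold in the quasi-likelihood test of edgeR, with 3 lower and 0 higher at an unadjusted p under 0.05 and 1 called by DESeq2. Rxra, the partner of FXR, was at 312 and 250 CPM in WT and 209 and 167 CPM in p53-/- libraries, with a log2 fold change of -0.58 close to that of Nr1h4. Gpbar1, the membrane bile acid receptor TGR5, was at or under 1.3 CPM in each library and was not tested. Ppara, a fatty acid receptor, had a log2 fold change of -0.998 and was the gene called by DESeq2. S1pr2, a sphingosine-1-phosphate receptor that also answers to conjugated bile acids, had 1.205, with genotypes that overlapped. Hnf4a, the enterocyte and liver receptor, was at 1454 and 1101 CPM in WT and 1143 and 777 CPM in p53-/- libraries, which overlap. Among 10 transcription factors of ileal genes, all tested, 0 passed in edgeR and 1, Cdx2 (named after its values were seen), passed with DESeq2, at a log2 fold change of -1.001. Cdx2 was the only one of these 10 with an unadjusted p under 0.05. Maf, a factor of ileal enterocytes, was at 441 and 545 CPM in WT and 395 and 335 CPM in p53-/- libraries. Gata4, which keeps ileal genes off in the upper SI, was at or under 4.13 CPM in each library. It had 38 and 7 counts in WT and 73 and 83 in p53-/- libraries (log2 fold change 1.38, adjusted p = 0.440 by the quasi-likelihood test of edgeR). Fos, an early response factor, had -1.29 (adjusted p = 0.403 by the same test). Its values overlapped, at 122 and 346 CPM in WT and 46.3 and 145 CPM in p53-/- libraries.

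The targets of FGF15 lie in the liver, and its receptor was low here. Klb, the coreceptor, was at or under 1.36 CPM and Fgfr4, the receptor, between 7.01 and 17.3 CPM. Malrd1 (Diet1), an enterocyte protein known to control FGF15 output, was at 341 and 361 CPM in WT and 277 and 205 CPM in p53-/- libraries (log2 fold change -0.54, adjusted p = 0.291 by the quasi-likelihood test of edgeR). None of these 3 genes had an unadjusted p under 0.05 or passed with DESeq2. Cyp7a1, the rate-limiting enzyme of bile acid synthesis in the liver, had 0 counts in all 4 libraries, and so did the hepatocyte genes Alb and Ahsg. Of 10 genes of bile acid synthesis and conjugation 5 were tested and 0 passed in edgeR, with 1 lower at an unadjusted p under 0.05 and called by DESeq2. It was Cyp27a1, a sterol 27-hydroxylase of mitochondria, at 35.2 and 63.7 CPM in WT and 16.8 and 12.8 CPM in p53-/- libraries (log2 fold change -1.74, adjusted p = 0.103 by the quasi-likelihood test of edgeR). Cyp7b1, an oxysterol hydroxylase, was at or under 1.44 CPM.

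The labelled tissue was checked against segment markers. The 19 genes of distal enterocytes, all tested, summed to between 11202 and 23071 CPM, while the proximal genes Lct, the lactase, and Fabp1, a fatty acid binding protein, were at or under 0.990 and 5.45 CPM. The colon genes Car1, Aqp8, Hoxb13, Hoxd10 and Hoxd13 were at or under 0.570 CPM. The sum of the distal list was 23071 and 21929 CPM in WT and 13398 and 11202 CPM in p53-/- libraries, without overlap, with the same sign as the 6 bile acid genes tested. The part of this difference in their values was not tested. The median log2 fold change of the distal list was -0.49, and 0 of 19 genes passed the threshold in the quasi-likelihood test of edgeR. Below WT without overlap lay 12 of 19, against 24.4% of all genes tested. At an unadjusted p under 0.05 in edgeR 9 were lower and 0 higher, against 7.92% of all genes lower. DESeq2 called 8 lower, against 3.50% of all genes. Mep1a, a brush border metalloprotease, had the lowest value of that list at -1.45, followed by Cubn, the ileal receptor of vitamin B12 with intrinsic factor, at -1.43, so that Fgf15 at -2.75 lay below each of its 19 genes. The distal list had 4 positive and 15 negative values. The proximal list had a similar median of -0.47 over 22 genes, with 9 positive and 13 negative values. Its sums overlapped, at 4916 and 3805 CPM in WT and 4032 and 3695 CPM in p53-/- libraries. Without overlap, 9 of the 22 lay below WT and 4 above, against 24.4% of all genes tested below. At an unadjusted p under 0.05 in edgeR 4 were higher and 7 lower, against 7.92% of all genes lower. DESeq2 called 3 higher and 7 lower, against 3.50% of all genes lower, so lower values were not particular to the distal list. In the quasi-likelihood test of edgeR 1 of the 22 proximal genes passed, Ms4a10, an enterocyte membrane gene (log2 fold change -2.01, adjusted p = 0.0433).

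Markers of the whole epithelium had lower values in p53-/- libraries. Summed over 11 genes of the whole epithelium, WT libraries 7 and 8 had 29153 and 21111 CPM and p53-/- libraries 9 and 10 had 19282 and 16207 CPM, and none of the defining markers Epcam, Cdh1 and Vil1 was near 0 (at least 763 CPM). All 11 had negative log2 fold changes, with a median of -0.46, and 0 passed the threshold or had an unadjusted p under 0.05 in edgeR, while 1, Krt19, passed with DESeq2. The list of 11 enterocyte genes had a median of -0.28. T cell genes were higher, with sums of 7.43 and 13.6 CPM in WT and 62.6 and 120 CPM in p53-/- libraries over 7 genes and a median of 3.13. Of these 7, 0 passed the threshold in edgeR. All 7 were higher at an unadjusted p under 0.05 in edgeR, against 18.0% of all genes in either direction. DESeq2 called all 7 higher, and among all 16105 genes it called 813 higher. The part of these cell types in the values of the bile acid genes was not tested by a model of cell composition. Setting library sizes to a list of genes is no such test. With library sizes set to the pan-epithelium list, the median of all genes was 0.47. The bile acid genes were then at -2.14 (Fgf15), -0.58 (Slc51a), -0.37 (Fabp6), -0.19 (Slc10a2), -0.027 (Nr1h4) and 0.029 (Slc51b). With library sizes set to the distal enterocyte list, an alternative chosen after seeing the data, the median of all genes was 0.88 and the values were -1.83 (Fgf15), -0.21 (Slc51a), -0.065 (Fabp6), 0.24 (Slc10a2), 0.37 (Nr1h4) and 0.40 (Slc51b). Fgf15 kept a negative value under both scalings, with unadjusted p-values of 0.00412 and 0.0193 and adjusted p-values of 0.0973 and 0.0501 by the quasi-likelihood test of edgeR. Slc51a had unadjusted p-values of 0.0413 and 0.461 under these scalings. Relative to the median of all genes, the values under distal scaling were -2.71 (Fgf15), -1.09 (Slc51a), -0.94 (Fabp6), -0.64 (Slc10a2), -0.51 (Nr1h4) and -0.47 (Slc51b), since scaling moves every gene together.

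**Figure D5:**
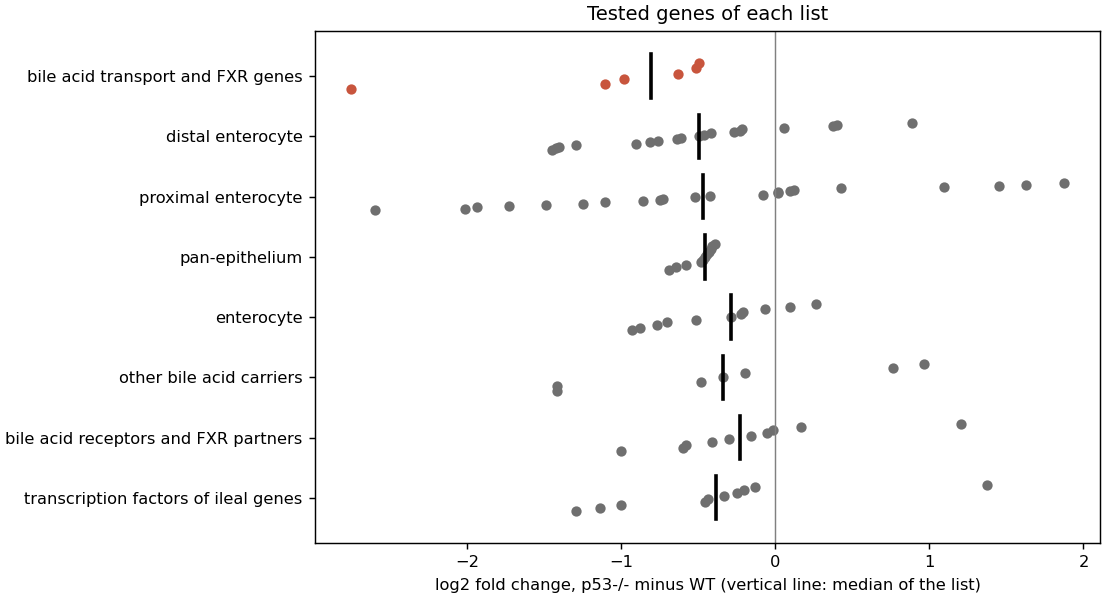
Log2 fold change (p53-/- minus WT) of each tested gene (points) of the bile acid transport and FXR genes in red and of 7 other lists in grey, with the median of each list as a vertical line. The medians run from -0.81 for the bile acid genes to -0.23 for receptors and FXR partners, and Fgf15 at -2.75 is the leftmost point drawn, all with TMM scaling.

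Genes outside the 7 with the most similar pattern were found by the root mean square distance of their log2 CPM, centred over the 4 libraries. For Fgf15 these were Dusp14, a phosphatase, at 49.7 and 12.8 CPM in WT and 4.03 and 4.78 CPM in p53-/- libraries, then Creb3l3 and Gprc5a (distances 0.196, 0.249 and 0.292). Creb3l3, a membrane-bound factor of lipid metabolism, was at 498 and 164 CPM in WT and 56.8 and 52.4 CPM in p53-/- libraries. For Fabp6 they were Bst1, Trib3 and Hsd17b13, with Bst1 at 53.2 CPM in WT library 7 and 13.1 to 19.6 CPM in the others. For Slc51a they were Arl14, Stk17b and Guca2a, the gene of the enterocyte and goblet cell peptide guanylin, and for Slc51b Slc10a3, Clta and Krt23. Slc10a2 was closest to Cacnb3, Adora1 and Hrc. Nr1h4 was closest to Arntl, the circadian clock gene that encodes BMAL1, at 83.7 and 76.2 CPM in WT and 57.2 and 55.5 CPM in p53-/- libraries, followed by Glud1 and Sbds. With 4 libraries many genes reach such distances, and they describe a likeness of values only.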

How the data were processed

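The deposited table holds raw read counts for each gene, not normalized by the authors, from irradiated SI of 2 WT and 2 p53-/- mice (12 Gy, day 1). Messenger RNA was selected with poly-T beads. The submitters' processing notes name fastp, HISAT2 2.0.5, featureCounts 1.5.0-p3 and DESeq2 1.20.0. The genome build, annotation and strand setting are not given in the sources used here. Column names give the genotype and not the labels' replicate number.

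Counts were scaled by TMM, filtered by filterByExpr and tested across 16094 genes with edgeR 4.0.16 (R 4.3.3), by the quasi-likelihood test with Benjamini-Hochberg adjustment at 0.05. Prior degrees of freedom were 3.45. The paper calls its replicates biological. The p-values of the quasi-likelihood test rest on the spread between 2 mice per genotype, moderated by that of the other genes through these prior degrees of freedom. DESeq2 1.42.0, the likelihood ratio test, other scalings and filters, and each library left out were alternatives. The scripts were checked on simulated data. The members and lists were chosen with earlier results of these data known. Named genes are the 7 members, 12 named for their role (1 is not reported here), list genes past the threshold or else the 2 of largest change, and the 3 most like each member (average log2 CPM of at least 1, prior count 2). Lists were written from general knowledge.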

Additional observations from a re-analysis of the deposited data

How the results depend on the processing

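No paired analysis was possible because the columns carry no replicate number of the labels. Fgf15 and Slc51a stayed negative under each of their 15 alternatives. DESeq2 called Slc10a2 (log2 fold change -0.65), Slc51a (-1.13) and Fgf15 (-2.77). The likelihood ratio test called Slc51a (-1.11) and Fgf15 (-2.75), and with no filter on low counts these were called at -1.06 and -2.70. Members called numbered 0 in the main test, 3 with DESeq2, 2 with the likelihood ratio test and 3 with no filter. The last 3 settings called 3.50%, 2.87% and 2.73% of all genes lower (of 16105, 16094 and 27841). Nr0b2 was also tested with no filter and with DESeq2, where it did not pass (log2 fold change -3.40, adjusted p = 0.123 by DESeq2). Scaled to the pan-epithelium list, Slc51b was 0.029, and scaled to the distal enterocyte list, Slc10a2 was 0.24, Slc51b 0.40 and Nr1h4 0.37, with the median of all genes at 0.47 and 0.88. Fabp6 was among the 50 most abundant genes and has no value where these are left out.

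Leaving out 1 library at a time, fold changes on the log2 scale lay between -1.57 and 0.022 for Fabp6, -3.32 and -1.81 for Fgf15, -0.59 and -0.43 for Nr1h4, -0.78 and -0.47 for Slc10a2, -1.38 and -0.78 for Slc51a, and -0.73 and -0.22 for Slc51b. Members called were between 0 and 3, and all genes called between 0 (without p53-/- library 10) and 1024 of 17090 (without WT library 8). The 3 members were called without WT library 8, the fit with the most genes called. Of the 6 genes of the main test only Slc51a and Fgf15 were among them. The third was thus Nr0b2, with 50 counts in WT library 7, the only WT library left. Carriers, ileal transcription factors, synthesis genes and distal enterocyte genes each had between 0 and 1 called, and proximal enterocyte genes between 0 and 7. Each fit leaves 1 library in a genotype, so nothing is read from these counts.

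Against 79 genes called, library size only gave 46, upper-quartile factors 49, pan-epithelium scaling 160, DESeq2 1376, the likelihood ratio test 1295, no filter 2194 and at least 10 counts in every library 42, where fewer genes were tested. List genes called under DESeq2, the likelihood ratio test and no filter were 3, 3 and 3 for carriers, 1, 0 and 1 for receptors, 1, 1 and 3 for ileal transcription factors, 1, 1 and 1 for synthesis and 8, 7 and 6 for distal enterocyte genes, against 0. They were 10, 9 and 12 for proximal enterocyte genes, against 1, with 0 under upper-quartile factors and 2 under pan-epithelium scaling. The cause of the differences was not tested, and scaling to a gene list is no test of it. With 2 mice per genotype, the intervals of Slc10a2, Fabp6, Slc51b and Nr1h4 include or nearly reach 0.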

Other observations

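A few genes of the marker lists had values apart between genotypes without passing the threshold in the quasi-likelihood test of edgeR. Slc40a1, the iron exporter ferroportin, was at 32.4 and 21.2 CPM in WT libraries and 92.0 and 73.8 CPM in p53-/- libraries (adjusted p = 0.0744 in edgeR, at 1.63 on the log2 scale, and called by DESeq2). Tat, tyrosine aminotransferase, was the only abundant gene of the hepatocyte list, at 20.3 and 8.63 CPM in WT and 92.8 and 64.1 CPM in p53-/- libraries, while Alb and Ahsg had 0 counts. Insl5, a hormone of distal enteroendocrine cells, was at 2.17 and 0.843 CPM in WT and 0.131 and 0.0995 CPM in p53-/- libraries. These genes were named after their values were seen.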
